A study of Mus musculus with 18 samples.

Results

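The 10 genes *Wnt2*, *Wnt4*, *Wnt5a*, *Wnt7b*, *Wnt11*, *Sfrp1*, *Sfrp2*, *Dkk2*, *Dkk3* and *Axin2* were followed in heart, kidney and tail fibroblasts of the mouse. They were chosen by symbol, each matched 1 Ensembl row of the deposited table of 38924 genes, and all 10 were among the 16577 genes with enough counts to test. Wnts are secreted lipid-modified glycoproteins that signal between neighbouring cells. In the canonical branch they bind a Frizzled receptor and an Lrp5 or Lrp6 co-receptor, which shuts down the destruction complex of beta-catenin and lets beta-catenin act with TCF/LEF factors on target genes. Secreted Frizzled-related proteins (Sfrp) bind Wnts outside the cell, and Dickkopf proteins (Dkk) act at the co-receptors, although *Dkk3* is a divergent member of that family. *Axin2* is the exception in the list, since its product is a scaffold of the destruction complex inside the cell, and it is widely read as a target that feeds back on beta-catenin signalling. In fibroblasts, Wnt signalling is known for its part in wound repair and fibrosis, and several of these genes also pattern the embryonic kidney, heart and skin.

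The study asked how far fibroblasts of an organ keep their expression in another tissue. The donors of all groups were male *ROSA mT/mG* mice, 10 weeks of age, whose cells carry membrane TdTomato as long as no Cre is present. Cells of heart, kidney or tail were grown for 10 days and then placed on gelatin foam under the kidney capsule of syngeneic C57BL/6J mice for 3 days. Live CD45-, TdTomato+ cells were then sorted (HFs, KFs and TFs), and cells replated for 3 further days in culture served as controls (HFc, KFc and TFc). With 3 libraries a group, the 6 groups came to 18 libraries. The host site was the kidney for all 3 organs. The study calls its replicates biological. Whether each came from a separate donor culture is not given in the sources used here, so the p-values measure the spread between these libraries.

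Library totals lay between 17927838 and 32245168 counts, and levels are given as CPM, with library sizes corrected by TMM factors. A gene was taken as detectable above 3 counts, which was 0.0890 to 0.180 CPM and covers counting error only. One library stood apart: KFs replicate 3 had 1487 CPM of *Xist* and 0.719 CPM of Y-linked genes, against at most 0.404 and at least 175 CPM in the other 17 libraries, which goes against the male donors of the label. KFs replicates 1 and 2 had 205 and 185 CPM of Y-linked genes, so the RNA of replicate 3 did not come from the same male donors. Its column header also begins with Kidney-Fibros, where those of the other 17 begin with an organ letter and a number. It is called KFs replicate 3 here after its label and is kept in the fits of all libraries. Which cells it holds was not tested. In KFs replicates 1, 2 and 3 the fibroblast markers summed to 103700, 80300 and 30040 CPM, the 11 epithelial markers to 39.4, 28.8 and 325 CPM and the leukocyte markers to 145, 114 and 12.6 CPM. In culture the fibroblast markers summed to 22140 to 23430 CPM in KFc, 41260 to 44010 in HFc and 35800 to 36130 in TFc. After transplantation they summed to 98500 to 161500 CPM in HFs and 46020 to 50920 in TFs. Not all 10 rose. *Thy1* fell from 123 to 130 CPM in HFc to 24.9 to 44.5 in HFs, and from 232 to 247 in TFc to 123 to 195 in TFs. *Vim* fell in both organs and *Fn1* in tail, while *Col1a1*, *Col1a2*, *Col3a1*, *Dcn*, *Lum* and *Pdgfra* rose in both. All 10 fibroblast markers were above the floor in every library outside KFc, where 9 or 10 were. Proximal tubule markers summed to 14.0 to 20.2 CPM in HFc and TFc and to 113 to 1166 CPM in HFs and TFs. In kidney cells these sums overlapped, at 95.6 to 102 CPM in KFc with 2 or 3 of 10 above the floor and 55.3 to 119 CPM in KFs with all 10 above it. Markers of the loop, distal tubule and collecting duct summed to at most 0.831 CPM in the cultured groups and 12.9 to 96.7 CPM in the transplanted ones. The 8 endothelial markers summed to 64.2 to 67.7 CPM in HFc and 90 to 97.1 in HFs. In kidney cells they summed to 65.9 to 70.1 CPM in KFc and 101 to 111 in KFs. Tail cells had 38.8 to 44.6 CPM of them in TFc and 61.2 to 77.7 in TFs. The endothelial marker that rose most was *Flt1* in kidney cells (28.6 to 35.1 CPM in KFc, 62.9 to 76.0 in KFs). It was also *Flt1* in tail cells (1.14 to 1.84 CPM in TFc, 17.2 to 31.8 in TFs), and *Tek* in heart cells. *Tek* fell in tail cells, *Pecam1* overlapped between the states in each organ and *Plvap* rose in each. The part of endothelial markers in the responses was not tested. In such bulk samples, fewer cells of a type and less RNA per cell cannot be told apart.

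Upstream sequences of 6 of the 10 members were matched by symbol in RefSeq (GRCm38.p6), in 7 windows because *Wnt11* has 2. Those of *Dkk2* and *Sfrp2* and the first of *Wnt11* are printed, since these genes show the widest contrasts between organs or opposite responses to transplantation. Each covers the 250 bases before the start, 5′ to 3′ on the gene's strand, with capitals for matches, on either strand, to CTTTGA or CTTTGT (cores of a TCF/LEF element), TATAAA or CCAAT.
Dkk2, chr3:132085042-132085291, plus strand: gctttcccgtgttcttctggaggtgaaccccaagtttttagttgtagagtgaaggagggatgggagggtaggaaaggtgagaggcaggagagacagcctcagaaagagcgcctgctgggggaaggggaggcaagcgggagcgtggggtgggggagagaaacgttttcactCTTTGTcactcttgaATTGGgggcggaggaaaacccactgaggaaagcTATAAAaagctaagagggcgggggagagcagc
Wnt11, chr7:98834862-98835111, plus strand: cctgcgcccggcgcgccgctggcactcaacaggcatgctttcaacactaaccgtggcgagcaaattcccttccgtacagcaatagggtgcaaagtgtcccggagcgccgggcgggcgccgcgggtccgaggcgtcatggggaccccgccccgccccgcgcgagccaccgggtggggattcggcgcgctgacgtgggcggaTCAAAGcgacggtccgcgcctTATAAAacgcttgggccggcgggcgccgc
Sfrp2, chr3:83766071-83766320, plus strand: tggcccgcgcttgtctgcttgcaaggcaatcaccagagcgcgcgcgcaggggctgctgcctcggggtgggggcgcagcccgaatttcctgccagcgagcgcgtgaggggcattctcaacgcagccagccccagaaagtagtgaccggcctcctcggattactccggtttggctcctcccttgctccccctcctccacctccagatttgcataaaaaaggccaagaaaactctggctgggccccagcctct

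The *Dkk2* window holds CTTTGT 80 bases before the start, CCAAT on the opposite strand at 65 bases and TATAAA at 32 bases. The printed *Wnt11* window holds CTTTGA on the opposite strand at 50 bases and TATAAA at 29 bases. The second *Wnt11* window (chr7:98838595-98838844, not printed) holds none of the 4 motifs. Nor is any of them in the *Sfrp2* window or in that of *Axin2*. Among 32851 RefSeq windows of this length, 13.8% hold CTTTGA, 16.5% CTTTGT, 12.4% TATAAA and 33.8% CCAAT, and the motifs do not overlap one another in the windows shown. A match describes the letters and shows no binding.

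Per kilobase of exon, an inhibitor was the most abundant member in each group. *Sfrp1* ranked first in HFc with 68.1 ± 9.5 CPM per kb (SD, n = 3) and in KFc with 121 ± 6.8, and *Dkk2* ranked first in TFc with 264 ± 9.75. *Wnt4* led the 5 member ligands in each group, from 4.94 ± 0.839 CPM per kb in HFc to 14.2 ± 3.95 in KFs. *Wnt7b*, *Wnt11* and *Axin2* stayed under 2 CPM per kb in every group mean. *Dkk2* ranked 4 in TFs, where *Sfrp2* led with 78.4 ± 39.9 CPM per kb. The levels of all members in each library are drawn on a log axis.

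**Figure D1:**
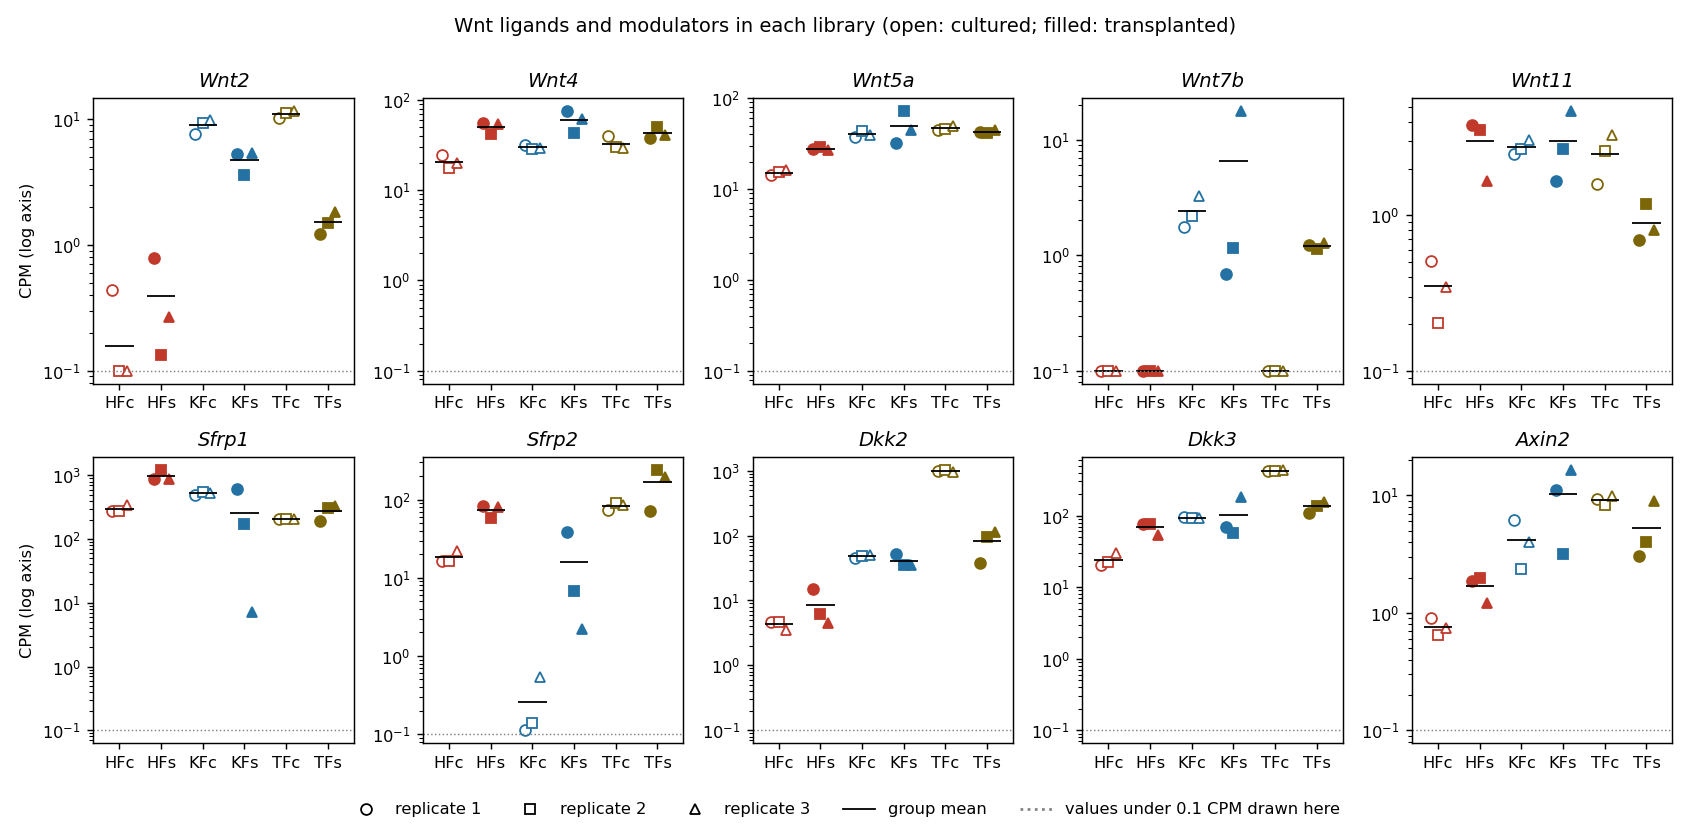
CPM of each member (log axis) in the 18 libraries, by group, with open symbols for cultured and filled symbols for transplanted cells, 1 marker shape per replicate, a line at the group mean and values under 0.1 CPM drawn at 0.1. *Dkk2* lies at 942 to 1014 CPM in TFc and at 3.54 to 4.74 CPM in HFc, and KFs replicate 3 (filled triangle) is the highest KFs library for *Wnt7b* and the lowest for *Sfrp1*.

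In culture most members had their lowest mean in heart. Against TFc, 8 of the 10 members were lower in HFc and none was higher, where 41.9% of all genes tested passed the same adjusted p threshold of 0.05. The median log2 difference was -2.81 over the 9 members above the floor in either group, against -0.01 over all genes. Against TFc, 1 member was higher and 3 were lower in KFc, a share near the 36.4% of all genes that passed. Between HFc and KFc, 1 was higher and 7 were lower in HFc (29.2% of all genes passed). Pericyte and smooth muscle markers summed to 1170 to 1208 CPM in KFc, 229 to 255 CPM in HFc and 126 to 130 CPM in TFc, and leukocyte markers to 440.2 to 471, 96.4 to 111 and 183 to 210.3 CPM, with all 5 and all 8 above the floor in each. Most of the pericyte and smooth muscle sum in KFc was *Myh11*, at 944 to 968 CPM, against 15.3 to 28.8 in HFc and 31.3 to 33.8 in TFc. *Mcam* was also highest in KFc, while *Notch3* was highest in HFc and *Cspg4* in TFc, and *Rgs5* overlapped between HFc and KFc. The part of both lists in these differences was not tested.

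*Dkk2* (ENSMUSG00000028031, GRCm38 chromosome 3, 132085292 to 132180304, plus strand) encodes a secreted ligand of Lrp5 and Lrp6 that can block canonical signalling. Its levels were 981, 1014 and 942 CPM in TFc, 45.4, 48.5 and 50.1 CPM in KFc and 4.74, 4.60 and 3.54 CPM in HFc. The groups did not overlap, and the ratio of the highest to the lowest mean was 228. It was lower by a log2 fold change of -7.82 (SE 0.488, adjusted p = 6.33e-09) in HFc and of -4.35 (SE 0.408, adjusted p = 9.64e-07) in KFc than in TFc. *Dkk3* (ENSMUSG00000030772, chromosome 7, 112116017 to 112159057, minus strand) followed the same order with 417, 424 and 430 CPM in TFc, 95.4, 92.6 and 93.5 in KFc and 20.5, 22.3 and 29.8 in HFc. The differences from TFc were -4.13 in HFc (SE 0.355, adjusted p = 2.06e-07) and -2.18 in KFc (SE 0.324, adjusted p = 9.39e-05).

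*Sfrp2* (ENSMUSG00000027996, chromosome 3, 83766321 to 83774316, plus strand), known for high levels in skin fibroblasts, was close to the floor in cultured kidney cells. KFc had 3, 4 and 16 counts (0.112, 0.140 and 0.532 CPM), while HFc had 16.5, 16.2 and 22.4 CPM and TFc 73.8, 90.3 and 85.4 CPM. This was the widest spread between organ means among members measurable in all 3, a ratio of 319 (661 without KFc replicate 3). Its log2 fold change was -8.25 (SE 1.01, adjusted p = 1.43e-05) in KFc against TFc, and 6.07 (SE 1, adjusted p = 0.000282) in HFc against KFc. Without KFc replicate 3, which held the 16 counts, these were -9.31 and 7.13. HFc was below TFc by -2.18 (SE 0.666, adjusted p = 0.0154), a call lost without HFc replicate 1 (adjusted p = 0.0554) or replicate 2 (adjusted p = 0.0567). *Sfrp1* (ENSMUSG00000031548, chromosome 8, 23411502 to 23449632, plus strand), a paralogue with like activity, had 498, 557 and 535 CPM in KFc, 273, 274 and 346 in HFc and 204, 206 and 207 in TFc. These groups did not overlap, but none of the 3 differences passed the test in the fit of all libraries (adjusted p = 0.186 to 0.616). Without KFs replicate 3, the differences of KFc from TFc (log2 1.39, adjusted p = 0.0018) and of HFc from KFc (-0.88, adjusted p = 0.0344) passed, and in fits of only the 2 groups compared all 3 differences passed, the highest adjusted p being 3.93e-06.

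Among the ligands, *Wnt2* (ENSMUSG00000010797, chromosome 6, 17988940 to 18030585, minus strand), a canonical ligand, was near the floor in heart. HFc had 12, 1 and 0 counts, against 7.57, 9.28 and 9.87 CPM in KFc and 10.2, 11.1 and 11.7 CPM in TFc. It was lower in HFc than in TFc by a log2 fold change of -6.01 (SE 0.653, adjusted p = 2.52e-06) with all libraries. Without HFc replicate 1, which held the 12 counts, every HFc library was under the floor and the difference passed (adjusted p = 3.72e-07), with no fold given. KFc and TFc differed by -0.30 (95% interval -1.3 to 0.69). *Wnt7b* (ENSMUSG00000022382, chromosome 15, 85535437 to 85582473, minus strand), a ligand of kidney collecting duct development, was detectable in culture in kidney cells alone. KFc had 1.75, 2.2 and 3.29 CPM, and every HFc and TFc library was at or under 3 counts, which makes KFc at least 20.2-fold higher than HFc (adjusted p = 0.00153) and at least 21.4-fold higher than TFc (adjusted p = 0.00193). The epithelial markers summed to 62.3 to 70.2 CPM in KFc, with 10 or 11 of 11 above the floor, against 3.98 to 6.44 CPM in HFc and TFc, with 2 or 3 above it. Their part in the *Wnt7b* difference was not tested.

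*Wnt5a* (ENSMUSG00000021994, chromosome 14, 28504750 to 28527448, plus strand), the prototype of a non-canonical ligand, had 14.1, 15.4 and 16.1 CPM in HFc, 37.8, 43.4 and 39.6 in KFc and 44.7, 46.0 and 49.4 in TFc. The HFc libraries lay below all other cultured libraries, with log2 differences of -1.62 from TFc (SE 0.199, adjusted p = 9e-06) and -1.41 from KFc (SE 0.198, adjusted p = 6.38e-05). *Wnt11* (ENSMUSG00000015957, chromosome 7, 98835112 to 98855195, plus strand), a mostly non-canonical ligand of the ureteric bud and the cardiac outflow tract, was also lowest in HFc with 0.510, 0.203 and 0.344 CPM. KFc had 2.50, 2.69 and 3.06 CPM and TFc 1.60, 2.59 and 3.29 CPM, and the difference of HFc from TFc was -2.81 (SE 0.479, adjusted p = 0.000218). *Wnt4* (ENSMUSG00000036856, chromosome 4, 137277489 to 137299726, plus strand), which drives nephron formation in the embryo, varied least, with 24.5, 17.6 and 20.1 CPM in HFc, 31.6, 28.8 and 29.0 in KFc and 39.6, 29.7 and 29.2 in TFc. It was lower in HFc than in TFc by -0.66 (SE 0.194, adjusted p = 0.0118), which was lost without HFc replicate 2 (adjusted p = 0.06) or TFc replicate 1 (adjusted p = 0.07). Its difference of -0.52 between HFc and KFc (adjusted p = 0.0542) lay at the threshold and passed under most alternatives. *Axin2* (ENSMUSG00000000142, chromosome 11, 108920349 to 108950783, plus strand) had 0.911, 0.643 and 0.737 CPM in HFc, 6.15, 2.37 and 4.02 in KFc and 9.41, 8.28 and 9.82 in TFc. HFc was lower than TFc by -3.58 (SE 0.564, adjusted p = 0.000105) and lower than KFc by -2.44 (SE 0.554, adjusted p = 0.0035).

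More members rose than fell in heart cells and more fell than rose in tail cells, and *Wnt11* and *Dkk3* rose in heart and fell in tail. In heart cells 4 of 10 members rose and none fell (27.7% of all genes passed, 18.3% upwards), in kidney cells 3 rose and none fell (22.6% of all genes), and in tail cells 1 rose and 4 fell (16.5% of all genes, 5.53% downwards). The median log2 fold change of the members was 1.28 in heart cells over the 9 above the floor, 0.23 in kidney cells and -0.45 in tail cells, against 0.05, 0.09 and 0 over all genes. The kidney values turned on replicate 3, without which 1 member rose (*Sfrp2*), 1 fell (*Wnt7b*) and the median was -0.29. In that fit 3921 of 16923 genes were called, 2184 of them higher, and the median over all genes was -0.006. For these responses a gene was called when its adjusted p was under 0.05 and its mean changed more than 2-fold.

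**Figure D2:**
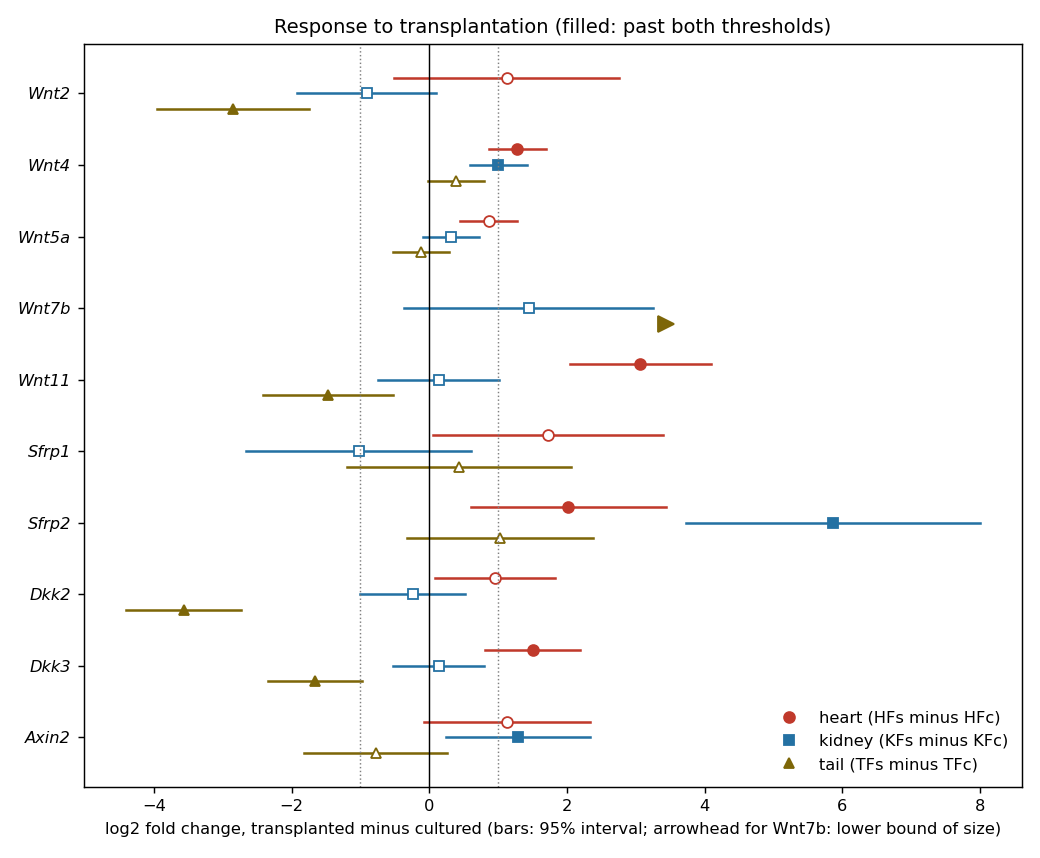
Log2 fold change of transplanted against cultured cells for each member in heart, kidney and tail fibroblasts, with 95% intervals from the quasi-likelihood fit, filled symbols past both thresholds and an arrowhead at the lower bound for *Wnt7b* in tail. *Wnt11*, *Dkk3* and *Sfrp2* are above 1 in heart, where *Wnt7b*, near 0 counts in both groups, is not drawn, and *Wnt2*, *Wnt11*, *Dkk2* and *Dkk3* are below -1 in tail.

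In heart cells *Wnt11* had the largest rise. Its levels went from 0.510, 0.203 and 0.344 CPM in HFc to 3.79, 3.52 and 1.67 CPM in HFs, with no overlap, a log2 fold change of 3.07 (SE 0.482, adjusted p = 6.72e-05). *Wnt4* rose to 55.2, 41.5 and 54.1 CPM (log2 1.28, SE 0.195, adjusted p = 5.27e-05). *Wnt5a* went to 27.5, 28.7 and 26.6 CPM, also above every HFc library, and its log2 fold change of 0.86 (SE 0.197, adjusted p = 0.00165) was under the fold limit. *Sfrp2* rose to 82.5, 58.7 and 81.8 CPM, a log2 fold change of 2.02 (SE 0.664, adjusted p = 0.017), and *Dkk3* to 77.5, 75.2 and 52.8 CPM, a log2 fold change of 1.50 (SE 0.323, adjusted p = 0.00101). The *Sfrp2* call was lost without HFc replicate 1 (adjusted p = 0.0568) or HFc replicate 2 (adjusted p = 0.0583).

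*Sfrp1* was the most abundant member in HFs, at 876, 1205 and 872 CPM against 273 to 346 CPM in HFc. The groups did not overlap, yet its log2 fold change of 1.73 (SE 0.784) had an adjusted p of 0.0723 in the fit of all 18 libraries, in which the KFs libraries ranged from 7.23 to 601 CPM. Without KFs replicate 3 the value was 1.75 with an adjusted p of 0.000166, without KFs replicate 1 it was 1.72 with an adjusted p of 0.0278, and in a fit of HFs and HFc alone 1.78 with an adjusted p of 3.05e-05. *Axin2* was at 1.86, 1.98 and 1.21 CPM in HFs, above the HFc libraries, with a log2 fold change of 1.13 (SE 0.57, adjusted p = 0.103). It passed with DESeq2 (1.2, adjusted p = 0.0499), in a fit of HFs and HFc alone (1.19, adjusted p = 0.0234) and without KFs replicate 2 (1.14, adjusted p = 0.0388). *Dkk2* had 14.9, 6.17 and 4.48 CPM in HFs and overlapped with HFc (log2 0.95, SE 0.41, adjusted p = 0.0597), and passed without HFs replicate 2 (1.18, adjusted p = 0.0401) or replicate 3 (1.31, adjusted p = 0.0143), with DESeq2 (1.04, adjusted p = 0.013) and with its size factors (1.01, adjusted p = 0.0477). Without HFs replicate 1, the highest library, it was 0.36 (adjusted p = 0.429). *Wnt2* was near the floor at 13, 3 and 7 counts, with a log2 fold change of 1.12 (SE 0.766, adjusted p = 0.224) that was 0.34 without HFs replicate 1 (adjusted p = 0.754). It passed without HFc replicate 1 (adjusted p = 0.00242), where the other HFc libraries were under the floor and no fold is given. *Wnt7b* had no HFs or HFc library above 3 counts. Proximal tubule markers summed to 113 to 1166 CPM in HFs, with all 10 above the floor, and to 19.9 to 20.2 CPM in HFc, with 3 above it. The 6 cardiomyocyte markers summed to 93.1 to 107 CPM in HFc, with 2 or 3 above the floor, and to 5.17 to 8.24 CPM in HFs, with 4 or 5 above it. That fall was in *Tnnt2* alone, at 92.2, 99.2 and 107 CPM in HFc and 1.32, 3.30 and 4.44 CPM in HFs, while *Tnni3*, *Actn2* and *Ryr2* were higher in each HFs library than in each HFc library. The part of both lists in these responses was not tested.

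In kidney cells the replicates differed widely, and *Sfrp2* gave the largest rise among the members. Its levels were 38.7, 6.89 and 2.24 CPM in KFs against 0.112, 0.140 and 0.532 CPM in KFc, so that each KFs library lay above each KFc library. The log2 fold change was 5.86 (SE 1, adjusted p = 0.000198), 6.33 without KFs replicate 3 (adjusted p = 9.88e-06) and 6.92 without KFc replicate 3 (adjusted p = 0.000966). Without KFs replicate 1, the highest library, it was 4.09 (adjusted p = 0.000256). *Wnt4* was at 75.9, 42.7 and 60.7 CPM against 28.8 to 31.6 CPM in KFc. Its log2 fold change of 1.005 (SE 0.193, adjusted p = 0.000516) sat at the fold limit, the leave-one-out values were 0.80 to 1.15, and without KFs replicate 3 it was 0.95 with an adjusted p of 0.0013. *Axin2* had 11.2, 3.17 and 16.4 CPM in KFs and overlapped with KFc at 2.37 to 6.15 CPM. It passed with a log2 fold change of 1.29 (SE 0.492, adjusted p = 0.0402), and without KFs replicate 3 the value was 0.73 with an adjusted p of 0.221. The *Axin2* call was also lost in 9 other fits with 1 library left out, with adjusted p up to 0.149, and in a fit of KFs and KFc alone (adjusted p = 0.152).

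KFs replicate 3 decided several other kidney values. *Wnt7b* had 0.687 and 1.15 CPM in replicates 1 and 2, below the KFc range of 1.75 to 3.29 CPM, and 17.9 CPM in replicate 3. The log2 fold change was 1.44 with all libraries (SE 0.847, adjusted p = 0.173) and -1.42 without replicate 3 (adjusted p = 0.0461), so its direction turned on this library. Without replicate 1 it was 1.97 (adjusted p = 0.0389). *Sfrp1* had 601, 172 and 7.23 CPM in replicates 1, 2 and 3 against 498 to 557 CPM in KFc, with a log2 fold change of -1.03 (SE 0.771, adjusted p = 0.286), of -0.50 without replicate 3 (adjusted p = 0.246) and of -2.56 without replicate 1 (adjusted p = 0.0119). *Dkk3* had 68.6, 58.0 and 182 CPM against 92.6 to 95.4 CPM in KFc. Its value of 0.14 (SE 0.312, adjusted p = 0.741) became -0.61 without replicate 3 (adjusted p = 0.00822), under the fold limit. All 11 epithelial markers were above the floor in KFs replicate 3 and 9 or 10 in replicates 1 and 2, among them *Pax8* at 6.26, 3.56 and 109 CPM and *Krt8* at 4.28, 1.31 and 70.0 CPM in replicates 1, 2 and 3. The 5 pericyte and smooth muscle markers summed to 1170 to 1208 CPM in KFc and to 119 to 184 CPM in KFs, with all 5 above the floor in both. Most of that fall was in *Myh11*, at 944 to 968 CPM in KFc and 67.4, 88.9 and 9.63 CPM in KFs replicates 1, 2 and 3. *Mcam*, *Cspg4* and *Notch3* were also lower in each KFs library than in each KFc library, while *Rgs5* was higher in KFs replicates 1 and 2 than in KFc. The 8 leukocyte markers summed to 440.2 to 471 CPM in KFc and to 12.6 to 145 CPM in KFs, with 7 or 8 above the floor. The part of these markers in the kidney values was not tested.

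**Figure D3:**
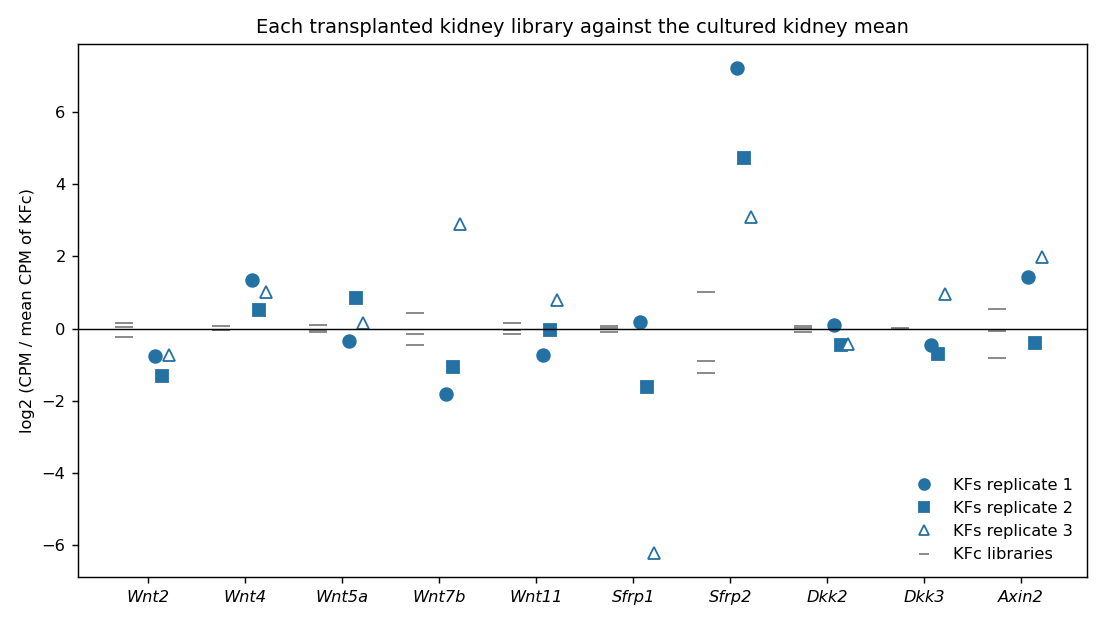
Log2 ratio of each KFs library to the mean CPM of KFc, by member, with grey ticks for the 3 KFc libraries and an open triangle for KFs replicate 3. The 3 KFs libraries are all above the KFc libraries for *Sfrp2* and *Wnt4*, and replicate 3 stands away from the other two for *Wnt7b*, *Sfrp1* and *Dkk3*.

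None of the remaining kidney members passed the test. *Wnt2* had 5.25, 3.59 and 5.39 CPM in KFs, below the 7.57 to 9.87 CPM of KFc, a log2 fold change of -0.91 (SE 0.475, adjusted p = 0.127). *Dkk2* had 51.3, 35.0 and 35.5 CPM, *Wnt5a* 32, 72.9 and 45.0 CPM and *Wnt11* 1.66, 2.69 and 4.72 CPM. Each overlapped with KFc, and the 95% intervals of the log2 fold change were -1.01 to 0.53 for *Dkk2*, -0.09 to 0.72 for *Wnt5a* and -0.74 to 1.02 for *Wnt11*.

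In tail cells *Dkk2*, the member that set TFc apart in culture, fell most. It went from 942 to 1014 CPM in TFc to 38.4, 95.9 and 114 CPM in TFs, a log2 fold change of -3.56 (SE 0.393, adjusted p = 5.83e-06), with values from -3.87 to -3.22 under the alternatives. *Dkk3* fell from 417 to 430 CPM to 109, 138 and 155 CPM (log2 -1.66, SE 0.318, adjusted p = 0.000803). *Wnt2* fell from 10.2 to 11.7 CPM to 1.23, 1.50 and 1.82 CPM (log2 -2.85, SE 0.519, adjusted p = 0.000519). *Wnt11* fell to 0.695, 1.18 and 0.806 CPM (log2 -1.47, SE 0.443, adjusted p = 0.0165), a call lost without TFc replicate 3 (adjusted p = 0.0643), TFs replicate 1 (adjusted p = 0.0621) or TFs replicate 3 (adjusted p = 0.0571). None of these 4 genes had a TFs library inside the TFc range. The 8 leukocyte markers, all above the floor in both groups, went from 183 to 210.3 CPM in TFc to 37.3 to 45.3 CPM in TFs, and their part in these falls was not tested.

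*Wnt7b* rose in tail cells, from 1, 2 and 0 counts in TFc to 1.23, 1.14 and 1.27 CPM in TFs, at least 10.8-fold (adjusted p = 0.00721). Markers of the loop, distal tubule and collecting duct summed to 22.9 to 70.0 CPM in TFs, with 8 to 10 of 10 above the floor, and to 0.263 to 0.386 CPM in TFc. In HFs the same markers summed to 12.9 to 96.7 CPM while *Wnt7b* had at most 1 count. The 11 epithelial markers summed to 8.31 to 22.4 CPM in TFs, with 7 to 9 above the floor. In TFc they summed to 5.49 to 6.44 CPM, with 2 above the floor. HFs had 6.13 to 36.7 CPM of epithelial markers, with 6 to 10 above the floor. The part of both marker lists in the *Wnt7b* value was not tested. *Sfrp2* had 72.7, 239 and 195 CPM in TFs and 73.8 to 90.3 CPM in TFc, with a log2 fold change of 1.02 (SE 0.635, adjusted p = 0.217). It passed in a fit of TFs and TFc alone (1.06, adjusted p = 0.0318) and without KFs replicate 1 (1.02, adjusted p = 0.043). *Axin2* had 3.05, 4.04 and 8.90 CPM, with -0.78 (SE 0.489, adjusted p = 0.224). Without TFs replicate 3, the highest library, this was -1.37 (adjusted p = 0.061), and without TFs replicate 1 it was -0.50 (adjusted p = 0.503). *Wnt4*, *Wnt5a* and *Sfrp1* had log2 fold changes of 0.39, -0.12 and 0.44 in tail cells, none past the test.

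Between transplanted groups the organs still differed. Against TFs, 1 member was higher and 6 lower in HFs (23.1% of all genes passed), while KFs had 2 members above and 2 below TFs (29.1% of all genes). *Sfrp1* was not called for HFs against TFs (log2 1.82, SE 0.787, adjusted p = 0.112). It passed in a fit of only these groups (1.86, adjusted p = 0.00137). It also passed without KFs replicate 3 (1.835, adjusted p = 0.000316) or KFs replicate 1 (1.819, adjusted p = 0.045). Between HFs and KFs, 1 was higher and 5 were lower in HFs (33.2% of all genes). *Dkk2* was lower in HFs than in TFs by a log2 fold change of -3.31 (SE 0.404, adjusted p = 2.38e-05), or -3.93 without HFs replicate 1. *Wnt7b*, at or under 1 count in HFs, was at least 8.54-fold higher in TFs (adjusted p = 0.00942) and at least 46.2-fold higher in KFs (adjusted p = 0.000457) than in HFs, the latter from a mean that includes the 17.9 CPM of KFs replicate 3. Without that library the KFs mean was 0.92 CPM and the bound 6.47-fold (adjusted p = 0.000146). *Wnt2* was higher in KFs than in TFs (log2 1.64, SE 0.509, adjusted p = 0.0244) and lower in HFs than in KFs (log2 -3.68, SE 0.597, adjusted p = 0.000301), or -4.49 without HFs replicate 1. *Wnt11* was higher in HFs than in TFs (log2 1.73, SE 0.446, adjusted p = 0.0104) and in KFs than in TFs (1.75, SE 0.444, adjusted p = 0.00795). The last value was 1.28 without KFs replicate 3 (adjusted p = 0.0306). *Sfrp2* was lower in KFs than in TFs (log2 -3.41, SE 0.698, adjusted p = 0.00189) and higher in HFs than in KFs (2.23, SE 0.67, adjusted p = 0.0185), the latter lost without KFs replicate 2 (1.87, adjusted p = 0.0717). Without KFs replicate 1 the 2 values were -5.18 and 3.99, and without replicate 3 they were -2.90 and 1.73, both past the test. *Dkk2* was lower in KFs than in TFs by -1.03 (SE 0.363, adjusted p = 0.0445), which became -0.95 with an adjusted p of 0.0713 without KFs replicate 3, and *Dkk3* by -0.38 (adjusted p = 0.392), which became -1.09 with an adjusted p of 0.000221.

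Of the 10 differences called between KFs and the other transplanted groups, 7 did not pass in fits of only the groups compared. Over all genes such fits called 1137 of 15211 for KFs against TFs and 883 of 15350 for HFs against KFs. In such fits *Sfrp2* (-3.40, adjusted p = 0.104), *Wnt11* (1.75, adjusted p = 0.0738) and *Dkk2* (-1.02, adjusted p = 0.171) did not pass between KFs and TFs. Between HFs and KFs, *Sfrp2* (adjusted p = 0.178), *Wnt5a* (0.129), *Wnt7b* (0.0589) and *Axin2* (0.0587) did not. *Wnt2* passed both ways in each pair, and *Dkk2* between HFs and KFs. Without KFs replicate 3, *Wnt2* was 1.53 for KFs against TFs (adjusted p = 0.0216) and -3.58 for HFs against KFs (adjusted p = 0.000162). Between HFs and KFs 7 members were then called in place of 6, with *Sfrp1* added (1.36, adjusted p = 0.00691). Over all genes 6570 of 16923 were called there, in place of 5504 of 16577.

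Several of the smaller differences between transplanted groups turned on single libraries. HFs were lower than TFs in *Wnt5a* (log2 -0.63, SE 0.194, adjusted p = 0.0274), *Wnt2* (-2.04, SE 0.613, adjusted p = 0.0247), *Dkk3* (-0.97, SE 0.315, adjusted p = 0.0356) and *Axin2* (-1.67, SE 0.525, adjusted p = 0.0306). The *Wnt5a* call was lost without any 1 of the HFs or TFs libraries (adjusted p = 0.0585 to 0.0985). That of *Dkk3* was lost without any HFs library or TFs replicates 2 or 3 (0.0592 to 0.132), that of *Axin2* without any HFs library or TFs replicate 3 (0.067 to 0.18) and that of *Wnt2* without replicates 2 or 3 of either group (0.0547 to 0.111). Without HFs replicate 1 the *Wnt2* value was -2.85, and without TFs replicate 3 that of *Axin2* was -1.08. The *Wnt2* difference of KFs from TFs was lost without any TFs library (0.0551 to 0.0753). The *Dkk2* difference of KFs from TFs, whose groups overlapped, was lost in 14 of the 18 fits with 1 library left out, with adjusted p up to 0.215.

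**Figure D4:**
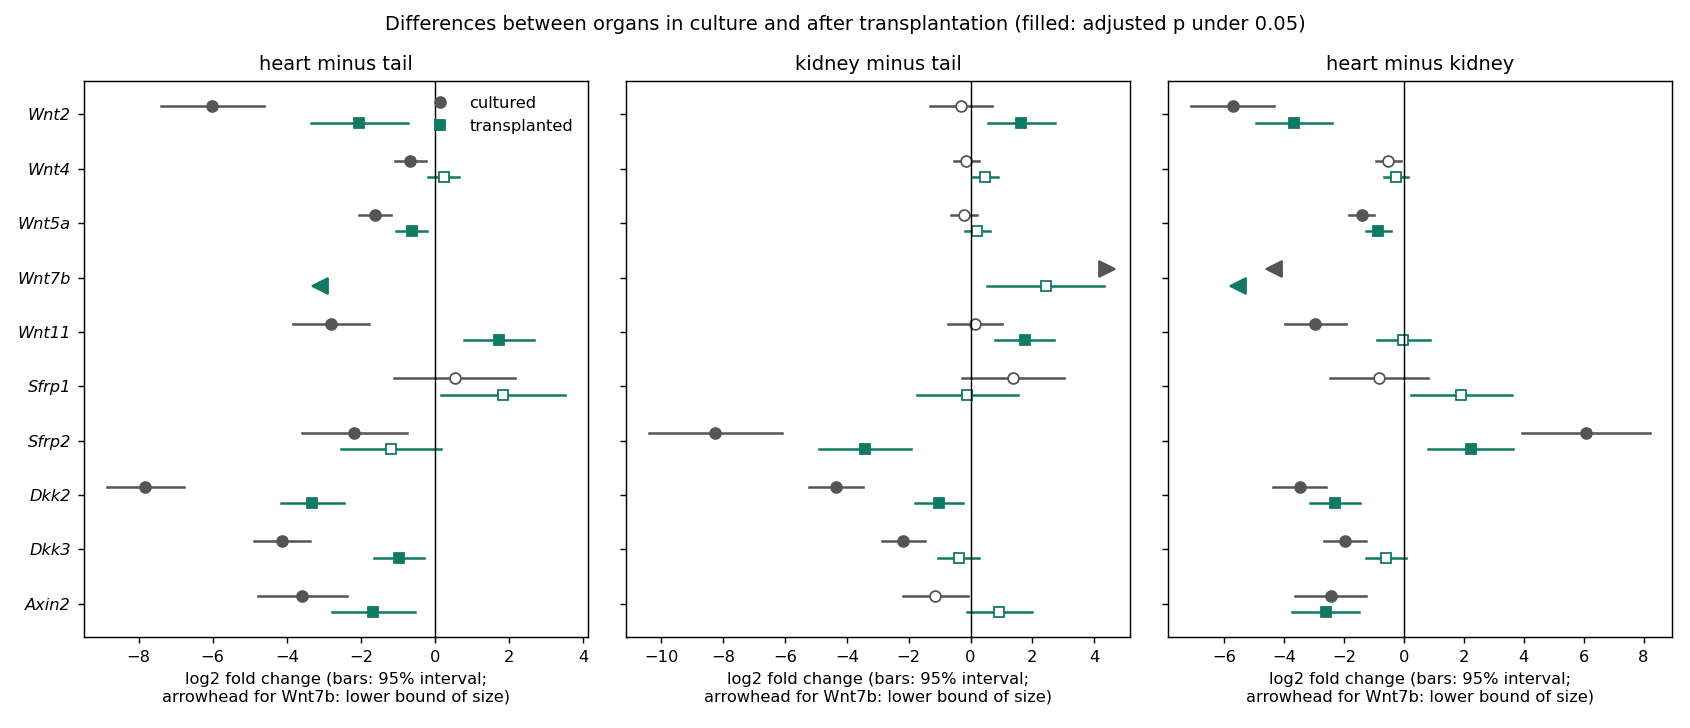
Log2 difference between organs for each member in cultured (grey circles) and transplanted (green squares) cells, with 95% intervals, filled symbols at an adjusted p below 0.05 and arrowheads at the lower bound for *Wnt7b*. For heart minus tail, *Wnt11* lies at -2.81 in culture and 1.73 after transplantation, and *Dkk2* at -7.82 and -3.31.

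The responses were also compared between organs, pair by pair. Between heart and tail, 6 members passed the test of the difference, all with the higher response in heart (22.8% of all genes passed). These were *Wnt11* (log2 difference of the responses 4.53, SE 0.654, adjusted p = 0.000195), *Dkk2* (4.51, SE 0.559, adjusted p = 5.29e-05), *Wnt2* (3.97, SE 0.921, adjusted p = 0.00622), *Dkk3* (3.16, SE 0.454, adjusted p = 0.000185), *Wnt5a* (0.99, SE 0.275, adjusted p = 0.0178) and *Wnt4* (0.89, SE 0.272, adjusted p = 0.0278). Between kidney and tail, 3 passed, where 11.1% of all genes did: *Sfrp2* (4.84, SE 1.23, adjusted p = 0.019), *Dkk2* (3.32, SE 0.519, adjusted p = 0.000899) and *Dkk3* (1.79, SE 0.443, adjusted p = 0.017). Between heart and kidney, 3 passed (26.2% of all genes): *Wnt11* (2.93, SE 0.631, adjusted p = 0.0032), *Sfrp2* (-3.85, SE 1.25, adjusted p = 0.0335) and *Dkk3* (1.37, SE 0.446, adjusted p = 0.0339). The pairs share groups, so their values are not independent of one another. *Wnt2*, *Wnt5a*, *Wnt11*, *Dkk2* and *Dkk3* between heart and tail, *Dkk2* and *Dkk3* between kidney and tail and *Wnt11* between heart and kidney passed in each fit with 1 library left out. Between heart and tail, *Wnt2* was 3.18 without HFs replicate 1 and rested on HFc libraries under the floor without HFc replicate 1 (adjusted p = 0.000235), and *Dkk2* was 3.92 without HFs replicate 1. *Sfrp2* between kidney and tail was 3.07 without KFs replicate 1 and 5.90 without KFc replicate 3, and between heart and kidney -2.08 without KFs replicate 1 and -4.90 without KFc replicate 3. Without KFs replicate 3, *Dkk3* was 1.06 between kidney and tail and 2.13 between heart and kidney, where *Wnt11* was 3.46 and *Sfrp2* -4.29. In fits of only the groups compared, *Dkk3* and *Sfrp2* passed neither between kidney and tail (1.72, adjusted p = 0.0517, and 4.78, adjusted p = 0.0639) nor between heart and kidney (1.44, adjusted p = 0.0713, and -3.79, adjusted p = 0.0635). The *Wnt4* call was lost without HFc replicates 2 or 3, TFc replicate 1 or TFs replicates 1 or 3 (adjusted p = 0.0556 to 0.0822), and *Sfrp2* between kidney and tail without KFc replicates 1 or 2 (0.0575 and 0.0602). Between heart and kidney, *Sfrp2* was lost in 7 such fits (0.0546 to 0.0855), without HFc replicate 3, any HFs library, KFc replicates 1 or 2 or KFs replicate 1, and *Dkk3* in 8 (0.0521 to 0.0816), without HFc replicates 1 or 2, HFs replicate 2, any KFc library or KFs replicates 1 or 2. *Sfrp1*, not called in any pair, passed without KFs replicate 3 between heart and kidney (2.24, adjusted p = 0.0017) and between heart and tail (1.32, adjusted p = 0.0289), and without KFs replicate 1 between heart and kidney (4.28, adjusted p = 0.00408) and between kidney and tail (-2.99, adjusted p = 0.0468). *Axin2*, also not called, was 1.91 between heart and tail (adjusted p = 0.0805) and 2.07 between kidney and tail (adjusted p = 0.0675). Both passed with DESeq2 (0.0373 and 0.0329). Without KFs replicate 2 (0.0236 and 0.0109) or TFs replicate 3 (0.0261 and 0.031) both passed too. *Wnt2* between kidney and tail (1.94, adjusted p = 0.0843) passed with DESeq2 (0.00212) and in a fit of only those groups (0.00373). The ratio of the highest to the lowest organ mean went from 228 in culture to 9.71 after transplantation for *Dkk2*, from 319 to 10.6 for *Sfrp2* and from 17.5 to 1.96 for *Dkk3*. With 1 library left out, the *Dkk2* ratio after transplantation was 7.85 to 15.5, highest without HFs replicate 1, and that of *Dkk3* 1.76 to 2.14. For *Sfrp2* it was 248 to 661 in culture, highest without KFc replicate 3, and 7.41 to 37 after transplantation, highest without KFs replicate 1. For *Sfrp1* it went from 2.58 to 3.78, with KFs, which holds the 7.23 CPM of replicate 3, as the lowest group, and without KFs replicate 1 it was 11 after transplantation.

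The other genes of the pathway, 77 that matched by symbol, were grouped by role, and shares called are to be read against 27.7% of all genes in heart, 22.6% in kidney and 16.5% in tail. Of the 8 tested of 14 other ligands, 2 rose and 1 fell in heart cells (37.5% called), 1 fell in kidney cells (12.5%) and 1 rose in tail cells (12.5%). *Wnt9a* fell in heart from 16.8 to 2.67 CPM (log2 -2.65, SE 0.408, adjusted p = 5.5e-05) and rose in tail from 2.27 to 5.94 CPM (1.38, SE 0.399, adjusted p = 0.0129), the opposite of *Wnt11*. Per kilobase, *Wnt9a* was at 5.04 CPM in HFc, close to *Wnt4*. *Wnt10b* rose in heart at least 5.69-fold (adjusted p = 0.00267) against HFc libraries of 0 to 2 counts, and *Wnt16* at least 1.46-fold (adjusted p = 0.0268) against HFc libraries of 0 to 3 counts. HFs held only 2 to 6 counts of *Wnt16*. Its call rests on the fitted fold change, and its bound lies under the 2-fold limit. *Wnt16* fell in kidney cells (-1.43, SE 0.469, adjusted p = 0.0195) from 17 to 19 counts to 3 to 9 counts.

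Of 15 tested receptors and co-receptors, 3 rose and 1 fell in heart (26.7% called), 1 rose and 4 fell in kidney (33.3%), and 2 rose and 2 fell in tail (26.7%). Among the Frizzled receptors, *Fzd1* rose in heart from 27.2 to 131 CPM (2.27, SE 0.275, adjusted p = 5.62e-06) and *Fzd6* fell (-1.44, SE 0.584, adjusted p = 0.0459). *Fzd7* fell in kidney (-1.62, SE 0.105, adjusted p = 1.92e-08) and tail (-1.02, SE 0.104, adjusted p = 2.83e-06). *Fzd8* (-1.13) and *Fzd4* (-1.09) fell in kidney, and in tail *Fzd3* fell (-1.03) and *Fzd5* rose (1.09). *Ror1* and *Ror2* are receptors for *Wnt5a*. *Ror1* rose in heart (1.80, SE 0.357, adjusted p = 0.000532) and tail (1.15, SE 0.361, adjusted p = 0.0201), and *Ror2* in heart (1.32, SE 0.249, adjusted p = 0.000335) and kidney (1.91, SE 0.244, adjusted p = 1.36e-05).

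Of 10 tested genes of Wnt secretion and R-spondin signalling, 2 rose in heart (20% called), 3 rose and 1 fell in kidney (40%), and 1 rose and 1 fell in tail (20%). *Porcn*, the acyltransferase that Wnts need for secretion, rose in heart cells from 1.01 ± 0.0203 to 5.00 ± 0.145 CPM (SD, n = 3, log2 2.31, SE 0.241, adjusted p = 1.3e-06 by edgeR). R-spondins amplify Wnt signals through the Lgr receptors. *Rspo3* rose in heart (5.6, SE 0.744, adjusted p = 1.37e-05, from 0 to 4 counts in HFc) and kidney (2.05, SE 0.419, adjusted p = 0.00087), and *Rspo2* fell in kidney (-3.89, SE 0.477, adjusted p = 9.36e-06) and rose in tail (1.52, SE 0.421, adjusted p = 0.00993). *Lgr5* rose in kidney from 0.189 to 3.64 CPM (4.24, SE 0.814, adjusted p = 0.000529) and *Lgr6* did too (1.58, SE 0.569, adjusted p = 0.0316), while *Rspo1* fell in tail to 1 to 7 counts (-3.13, SE 0.715, adjusted p = 0.00286).

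Of 6 tested other inhibitors, 2 rose in heart (33.3% called), 1 rose and 1 fell in kidney (33.3%), and 3 rose and 2 fell in tail (83.3%). *Kremen2*, a receptor for Dkk proteins, rose in all 3 organs by 1.53, 1.79 and 1.48 in heart, kidney and tail. *Notum*, an enzyme that removes the lipid from Wnts, fell in tail (-3.21, SE 1.08, adjusted p = 0.0285) and in kidney at least 5.68-fold (adjusted p = 0.0361). *Frzb*, a relative of the Sfrp genes, fell in tail (-1.08, SE 0.263, adjusted p = 0.00451) and *Sfrp4* rose there (2.41, SE 0.825, adjusted p = 0.0305). *Sostdc1* rose in heart at least 4.53-fold (adjusted p = 0.00558) from 0 counts in HFc to 1 to 20 counts in HFs.

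Besides *Axin2*, 13 genes known as feedback targets of beta-catenin were read, of which 11 were tested. In heart 1 rose and 2 fell (27.3% called), in kidney 2 rose and 4 fell (54.5%), and in tail none rose and 5 fell (45.5%). *Nkd2*, an antagonist induced by the pathway, fell from 47.1 to 3.04 CPM in kidney (-3.95, SE 0.401, adjusted p = 1.49e-06) and from 46.0 to 7.76 CPM in tail (-2.56, SE 0.371, adjusted p = 7.51e-05), and its paralogue *Nkd1* fell in kidney (-2.26, SE 0.55, adjusted p = 0.0031). *Ccnd1*, a cell cycle gene with many other inputs, fell in all 3 organs by -2.89, -1.13 and -1.02 in heart, kidney and tail. *Apcdd1*, a membrane inhibitor of Wnt signalling, fell in heart (-1.18, SE 0.223, adjusted p = 0.000357) and tail (-1.48, SE 0.248, adjusted p = 0.000273), and *Notum* and *Lgr5* are also in this list. Median log2 fold changes of the tested targets were 0.22, -0.26 and -1.02 in heart, kidney and tail, beside 0.05, 0.09 and 0 over all genes. The kidney median includes KFs replicate 3 and is given only for all libraries. Without that library 1 tested target rose and 3 fell in kidney. Of the 19 genes of beta-catenin destruction and transcription, all tested, *Pygo1* (1.32 and 1.17) and the transcription factor *Tcf7* (1.62 and 1.64), itself a feedback target, rose in heart and kidney (10.5% called in each), and none passed in tail.

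Most kidney counts of these lists were different without KFs replicate 3, a fit that called 3921 of all 16923 genes tested, 2184 of them higher. Of the other ligands 2 fell, of the receptors 1 rose and 4 fell, of the secretion and R-spondin genes 2 rose and 1 fell, of 7 tested inhibitors 2 rose, of the beta-catenin genes 1 rose, and of the feedback targets 1 rose and 3 fell. *Lgr5* (4.39, adjusted p = 0.000307), *Rspo3* (2.43, adjusted p = 3.8e-07), *Rspo2* (-3.51, adjusted p = 2.41e-06), *Nkd2* (-3.56, adjusted p = 3.85e-08) and *Ror2* (2.12, adjusted p = 2.15e-07) passed both ways. *Tcf7* (0.69, adjusted p = 0.0781), *Lgr6* (0.32, adjusted p = 0.549), *Notum* (-2.79, adjusted p = 0.079) and *Fzd4* (-0.82, under the fold limit) did not.

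Over the 18 libraries, the genes whose log2(CPM + 1) ran most alike with each member were ranked by Pearson's r, which is a description over libraries that share organ and state. *Sfrp2* ran with the collagen VI genes *Col6a2* (r = 0.982) and *Col6a1* (r = 0.97) and with *Abca9* (r = 0.972), and these 3 stayed the closest without KFs replicate 3. *Dkk2* ran with *Pcdha11*, *Cdh18* and *Scn1a* (r = 0.952 to 0.958), *Dkk3* with *Thsd1*, *Ptpn22* and *Itpr3* (0.949 to 0.959), *Wnt2* with *Slc35b4*, *Htr1b* and *Tmem59l* (0.944 to 0.95) and *Sfrp1* with *Elmo1*, *Tcea3* and *Pde3a* (0.889 to 0.945). *Wnt4* ran with *Zfand5*, *Arl5b* and *Ccdc144b* (0.923 to 0.929) and *Wnt5a* with *Enah*, *Tpbg* and *Ccbe1* (0.921 to 0.938). The tight junction gene *Cldn1* was among the 3 closest to *Wnt7b* (r = 0.947), after *Trio* and *Srd5a1*. For *Wnt11* (*Rgs17*, *Tgfb1* and *Stx3*, 0.842 to 0.864) and *Axin2* (*Ccser1*, *Fnbp1l* and *Sema6a*, 0.873 to 0.891), none of the 3 stayed among the closest 3 without KFs replicate 3. Of the 3, 1 stayed for *Dkk2*, *Wnt2*, *Wnt5a*, *Wnt7b* and *Sfrp1* and 2 for *Dkk3* and *Wnt4*.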

How the data were processed

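Stranded total RNA libraries were read from 1 end. According to the study's methods, reads were trimmed for quality and assigned by RSEM with Bowtie2 on GRCm38, while the submitters' processing notes name mm9, Bowtie and RSEM. The authors deposited expected counts per gene, whole numbers without normalization, in 1 table of 18 columns. Neither the annotation release nor the rounding is given in the sources used here. Positions are those of GENCODE mouse release M21 (GRCm38). The members and lists were chosen with earlier results of these data known.

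With edgeR 4.0.16 under R 4.3.3, low counts were filtered by filterByExpr, scaled by TMM and fitted by glmQLFit with 1 mean per group over all 18 libraries. Two-sided p-values of glmQLFTest carried a Benjamini-Hochberg adjustment across all 16577 tested genes. The SE is the size of the log2 fold change divided by the root of F. Against a group whose libraries all had at most 3 counts, the fold was computed against 3 counts per library and is a lower bound. Genes outside the members were named as the up to 4 with the smallest adjusted p per list and comparison among those called. In simulated counts for HFs against HFc with 200 genes changed 4-fold, among 15951 tested, 198 were called, with 5 unchanged genes. The simulation gave all genes and libraries the same dispersion and changed only genes well above the floor. Between real replicates, chi-square per degree of freedom reached 5.33 in HFc and 88.7 in HFs, so the share called does not carry over to these data. No 2 replicates agreed within sampling noise. Counting used strand, so genes that overlap *Wnt5a*, *Wnt7b*, *Wnt11*, *Sfrp2* and *Axin2* on the opposite strand were kept apart. The alternatives were DESeq2 1.42.0, other scalings and filters, the replicate number as a block, fits of only the groups compared, other thresholds and each library left out in turn. Figures were drawn with matplotlib 3.10.9 in Python 3.11.15. Upstream sequences came from RefSeq (GRCm38.p6).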

Additional observations from a re-analysis of the deposited data

Results flagged for a closer look

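The response to transplantation differed between organs by its own test for 12 combinations of member and organ pair, given here as log2 differences of the responses. Of the 10 members, 6 passed between heart and tail, 3 between kidney and tail and 3 between heart and kidney, where 22.8%, 11.1% and 26.2% of all genes did, so that the last share was near that of all genes. Heart exceeded tail for *Wnt2* (3.97), *Wnt4* (0.89), *Wnt5a* (0.99), *Wnt11* (4.53), *Dkk2* (4.51) and *Dkk3* (3.16). Kidney exceeded tail for *Sfrp2* (4.84), *Dkk2* (3.32) and *Dkk3* (1.79). Heart exceeded kidney for *Wnt11* (2.93) and *Dkk3* (1.37) and was below it for *Sfrp2* (-3.85). *Wnt11* and *Dkk3* passed both thresholds upwards in heart cells and downwards in tail cells. The *Wnt2* difference rests on heart libraries of 0 to 13 counts. Without KFs replicate 3 the difference between kidney and tail was 1.06 for *Dkk3* (adjusted p = 0.00379) and 5.32 for *Sfrp2* (adjusted p = 0.00138), and that of *Wnt7b*, with no value given because all TFc libraries were under the floor, passed (adjusted p = 0.000212, against 0.179 with all libraries). Groups of 3 libraries were not tested for single outlying values.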

How the results depend on the processing

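Over 120 member results and 3147 alternative values, 2914 kept their direction and side of the threshold, 29 changed sign without being called in either fit (in 13 results), 124 fell below the threshold, 79 passed it newly and 1 was called with the opposite sign. That 1 was *Wnt7b* in kidney cells, at -1.42 without KFs replicate 3, and its values with 1 library left out ran from -1.42 to 1.97. In fits of only the groups compared, the number of members called went from 6 to 2 for HFs against KFs, from 4 to 7 for KFc against TFc, from 4 to 1 for KFs against TFs and from 3 to 1 for the response of heart against kidney. Over all genes these fits called 883 of 15350, 8675 of 14956, 1137 of 15211 and 3031 of 16187, in that order. With all groups fitted the counts were 5504, 6026, 4819 and 4347 of 16577. With an adjusted p under 0.01, 2 remained called of 7 for HFs against TFs, 2 of 4 for KFs against TFs, 1 of 3 for the response of heart against kidney and 1 of 3 for kidney against tail, where DESeq2 called 5. Of all 16577 genes, 2236, 2801, 2386 and 767 were called at that threshold, in the same order. DESeq2 called 2602 for kidney against tail. With each library left out in turn the counts ran from 3 to 9 for HFs against TFs, 1 to 3 for KFs against KFc, 2 to 6 for KFs against TFs, 1 to 4 for the response of heart against kidney and 2 to 6 for that of kidney against tail. Over all genes the counts ran from 2743 to 5244, 3347 to 3921, 3183 to 5944, 3249 to 5962 and 1198 to 3619, in the same order. The cause of these changes was not tested.

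Over all genes, counts that moved by more than 1.5 times were, in fits of only the groups compared, 7508 against 4833 for HFc and KFc, 1137 against 4819 for KFs and TFs and 883 against 5504 for HFs and KFs. Under an adjusted p of 0.01 they were 3849 against 6026 (KFc and TFc), 3041 against 4833 (HFc and KFc), 2236 against 3822 (HFs and TFs), 2801 against 4819 (KFs and TFs), 3317 against 5504 (HFs and KFs) and, for the responses, 1904 against 3776 (heart and tail), 767 against 1835 (kidney and tail) and 2386 against 4347 (heart and kidney). Without the fold limit they were 9353 against 4585 in heart, 8091 against 3754 in kidney and 6433 against 2743 in tail. The response of kidney against tail gave 3619 without KFs replicate 3 and 1198 without TFc replicate 3, and KFs against TFs gave 3183 without TFs replicate 3. Scaling by library size alone moved the median of all genes from -0.03 to -0.25 for HFs against TFs, from -0.04 to -0.25 for HFs against KFs, from -0.01 to -0.16 for HFc against TFc and from -0.03 to -0.14 for the response of heart against kidney. It moved the higher calls to 2458 of 6916 from 3464 of 6943 for HFc against TFc, 1823 of 4487 from 2511 of 4833 for HFc against KFc, 1123 of 5720 from 1713 of 3822 for HFs against TFs and 1528 of 6657 from 2356 of 5504 for HFs against KFs.

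Whether replicate numbers pair the libraries is not known. Same-numbered residuals had correlations of -0.189 to 0.123, which cannot decide it because libraries of different number were not compared. With the replicate block, *Dkk2* between KFs and TFs (-1.07, adjusted p = 0.0583), *Sfrp2* in the response of heart against kidney (-3.74, adjusted p = 0.0571) and *Wnt4* in kidney cells (0.98, under the fold limit) were no longer called, and *Wnt4* between HFc and KFc was (-0.54, adjusted p = 0.0287). Depth limits *Wnt7b* and *Wnt2* in heart cells, where libraries held 0 to 1 and 0 to 13 counts. The part of tubule markers in the responses was not tested.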
